A study of Mus musculus with 3 samples.

Results

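Beta cells of islets in which *Taf4* had been inactivated for 5 weeks were compared with beta cells of wild-type (WT) islets, gene by gene, in single-cell RNA-seq of isolated mouse islets of Langerhans. A barcode was taken as a beta cell when *Ins2* made up at least 20% of its UMIs (counted RNA molecules), with *Gcg* below 3% and *Sst* and *Ppy* each below 2%. These limits kept 13558 of the 25524 barcodes of the series, 8259 of 12000 in the WT library and 5299 of 11229 in the 5-week library. The remaining barcodes of the series include a 1-week library of 2295, of which 1138 met the same limits.

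The *Taf4* b-/- mice (TAF4 KO in the labels, strain C57/Bl6) carried floxed *Taf4* alleles and a tamoxifen-inducible Cre recombinase driven by an insulin promoter, and tamoxifen was given to adults on consecutive days. The WT animals received tamoxifen as well according to the methods of the study, while the labels describe the sequenced WT sample as wild type without naming alleles. A single mouse gave the 300 islets of the WT library, and 2 mice together gave the 300 islets of the 5-week library, so each side was 1 library and no replicate error could be measured. Every interval given here is a 95% interval for counting error only, exact except where a normal approximation is named, and a difference between the libraries cannot be told apart from a difference between animals or preparations.

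Taf4 is a subunit of TFIID, the general transcription factor that holds the TATA-binding protein and places RNA polymerase II at promoters. A beta cell takes up glucose through the transporter Glut2 (*Slc2a2*), phosphorylates and oxidises it, closes its ATP-sensitive potassium channels and releases insulin from dense-core granules when calcium enters. Proinsulin is folded in the endoplasmic reticulum (ER), and misfolded protein there sets off the unfolded protein response and the integrated stress response.

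The beta cells held a median of 1655 UMIs in WT and 3903 UMIs at 5 weeks. Insulin and the other islet hormones took most of these, and the 7 hormone genes *Ins1*, *Ins2*, *Iapp*, *Gcg*, *Sst*, *Ppy* and *Pyy* were left out of the totals, which left 5121731 UMIs in WT and 8764646 at 5 weeks. Levels are given as CPM, counts per 1e6 of these hormone-free UMIs. The median mitochondrial share was 3.33% in WT and 3.15% at 5 weeks. The WT table held no barcode with more than 1489 detected genes, whereas the 5-week table reached 1999. Doublets and cells with high levels of hormones of several classes had been removed from the WT library by the authors and not from the 5-week library. Of the barcodes with at least 20% *Ins2*, 149 in WT and 921 at 5 weeks failed a limit on another hormone, and at 5 weeks 535 of these exceeded the *Gcg* limit and 419 the *Sst* limit. With the other limits met, 9 WT and 13 5-week barcodes had 18 to 20% *Ins2*, just below the limit, and 14 and 23 had 20 to 22%, just above it. The WT library went against its label: it is described as coming from a male mouse, yet it held 17357 UMIs of *Xist* and none of *Ddx3y*, while the 5-week library held 11 of *Xist* and 1349 of *Ddx3y*. A difference between the libraries thus cannot be told apart from a difference of sex either, and *Xist* is counted among the genes called lower below. The 4 genes with at least 100 beta-cell UMIs that only the 5-week table listed, *Ddx3y* among them, did not enter the comparison. Since this is the sole WT library, no result can be given without it. The WT and 5-week libraries shared 33 barcodes, 10 of them beta cells in both.

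**Figure D1:**
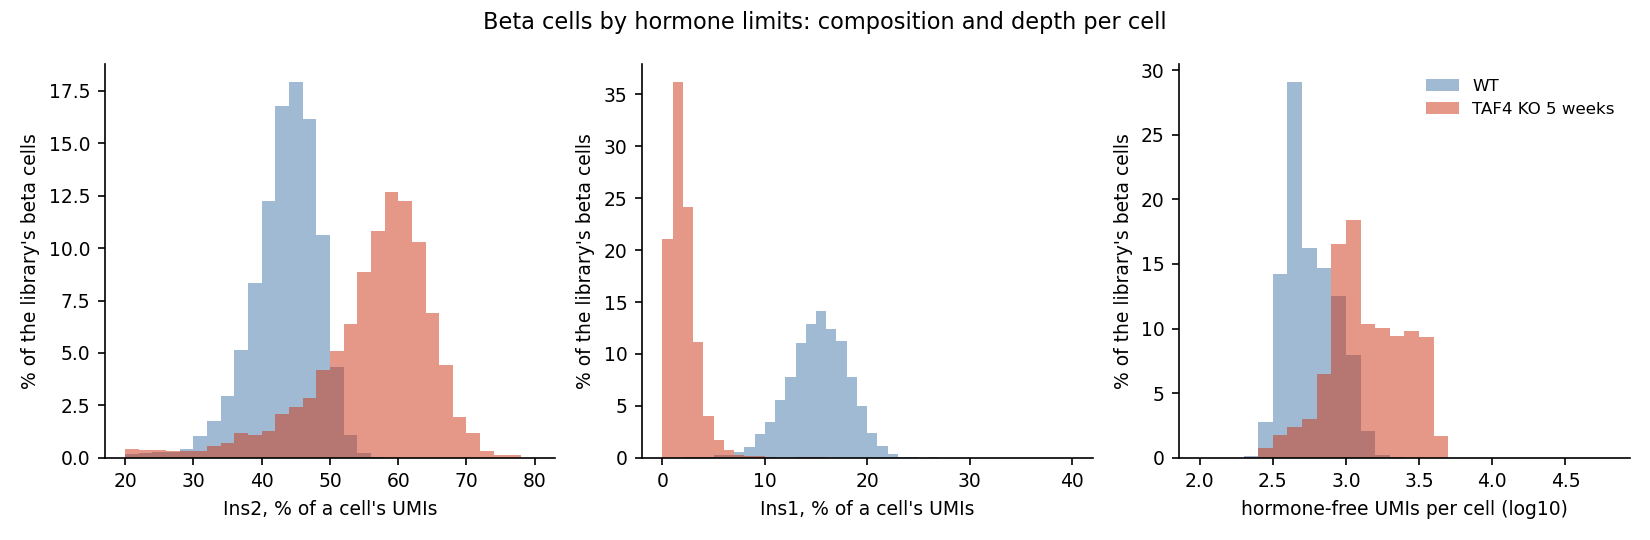
Share of each library's beta cells (vertical axes, percent) by the *Ins2* share, the *Ins1* share and the hormone-free UMIs (log10) of a cell, for WT (blue, 8259 cells) and 5 weeks (red, 5299 cells). The *Ins1* shares of both libraries barely overlap, whereas the *Ins2* distribution of the 5-week cells lies to the right of that of WT, and the 5-week cells are deeper.

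*Ins2* chose the cells, so its level is a description: its median share of a cell's UMIs was 44.0% in WT and 58.1% at 5 weeks. *Ins1*, the second mouse insulin gene (chr19:52264297-52265015, GRCm38), had a median share of 15.3% in WT (5th to 95th percentile of cells 10.2 to 19.7%) and of 1.80% at 5 weeks (0.45 to 4.49%). 16 of the 5299 5-week cells, or 0.302%, reached the 5th percentile of WT. The summed *Ins1* UMIs gave a log2 ratio of 5 weeks over WT of -2.79 (-2.80 to -2.79). *Iapp*, which encodes the amyloid peptide released with insulin, had a median share of 8.16% in WT and 5.31% at 5 weeks and a log2 ratio of -0.55 (-0.55 to -0.54). *Gcg*, *Sst* and *Ppy* were held down by the limits, and their summed shares of all beta-cell UMIs were 0.183%, 0.0244% and 0.0116% in WT and 0.135%, 0.0893% and 0.0271% at 5 weeks. Alpha cells of the same libraries, which should lack insulin RNA, held *Ins1* at 1.02% of their UMIs in WT and 0.122% at 5 weeks. The *Ins1* promoter is printed because its gene was far lower in cells that were chosen for high *Ins2*. It is the RefSeq window from 250 bases before to 50 bases after the start (chr19:52264047-52264346, plus strand), and none of the 3 motifs searched below occurred in it, so it holds no capitals.
Ins1: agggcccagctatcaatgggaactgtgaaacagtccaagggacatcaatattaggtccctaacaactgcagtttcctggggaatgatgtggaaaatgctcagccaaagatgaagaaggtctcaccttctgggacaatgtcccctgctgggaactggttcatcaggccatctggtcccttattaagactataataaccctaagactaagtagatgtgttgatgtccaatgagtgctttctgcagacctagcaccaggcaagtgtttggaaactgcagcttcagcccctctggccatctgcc

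*Taf4* itself (chr2:179912146-179976646) was counted at 14.4 CPM (11.3 to 18.1) in WT and 10.5 CPM (8.46 to 12.9) at 5 weeks, from 74 and 92 UMIs, and the interval of the log2 ratio, -0.46 (-0.92 to 0.00), reached 0 at its upper end. The counts are tags of transcript 3′ ends, and the sources used here do not give which part of *Taf4* was deleted, so they do not check the inactivation. *Taf4b*, which encodes the paralogue of Taf4, had 14 and 48 UMIs, too few for the comparison.

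Across the genome, 9042 of the 15429 genes listed in both tables had at least 100 UMIs in the beta cells of both libraries together and entered the comparison. A gene was called higher or lower when the whole interval of its ratio lay beyond 2-fold. By this rule 141 genes were higher at 5 weeks (1.56% of those tested) and 290 were lower (3.21%), 4.77% in either direction. The middle 90% of log2 ratios ran from -1.01 to 0.98 with a median of 0.09, and for 6850 genes (75.8%) the interval lay wholly within 2-fold. The genes called lower reached farther from 0: 94 genes were past 4-fold in that direction and 17 in the other. When cells were thinned to 300 hormone-free UMIs each, so that both libraries had equal depth, 5333 genes entered, and 82 were higher and 152 lower, of which 76 and 144 were also called from the whole counts. Thinning leaves fewer UMIs of each gene, so that some fell below the minimum or gave wider intervals. The ratios moved as well: those of 101 named genes stayed within their interval from the whole counts, and those of 56 did not. The largest shift was 1.40 on the log2 scale. The genes named below whose calls from the whole counts were lost on thinning were *Arid5b*, *Egr2*, *Eprs*, *Gcgr*, *Gpr119*, *Hbb-bt*, *Hist1h4c*, *Hist2h4*, *Myt1*, *Nqo1*, *Olfr1322*, *Pdx1*, *Phgdh*, *Phlda3*, *Psmb8*, *Rab3b*, *Scd2*, *Scn3a*, *Selenos*, *Snhg11*, *Tapbp* and *Th*. Leaving out cells above 3 times the median UMIs of their library gave 144 higher and 289 lower.

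**Figure D2:**
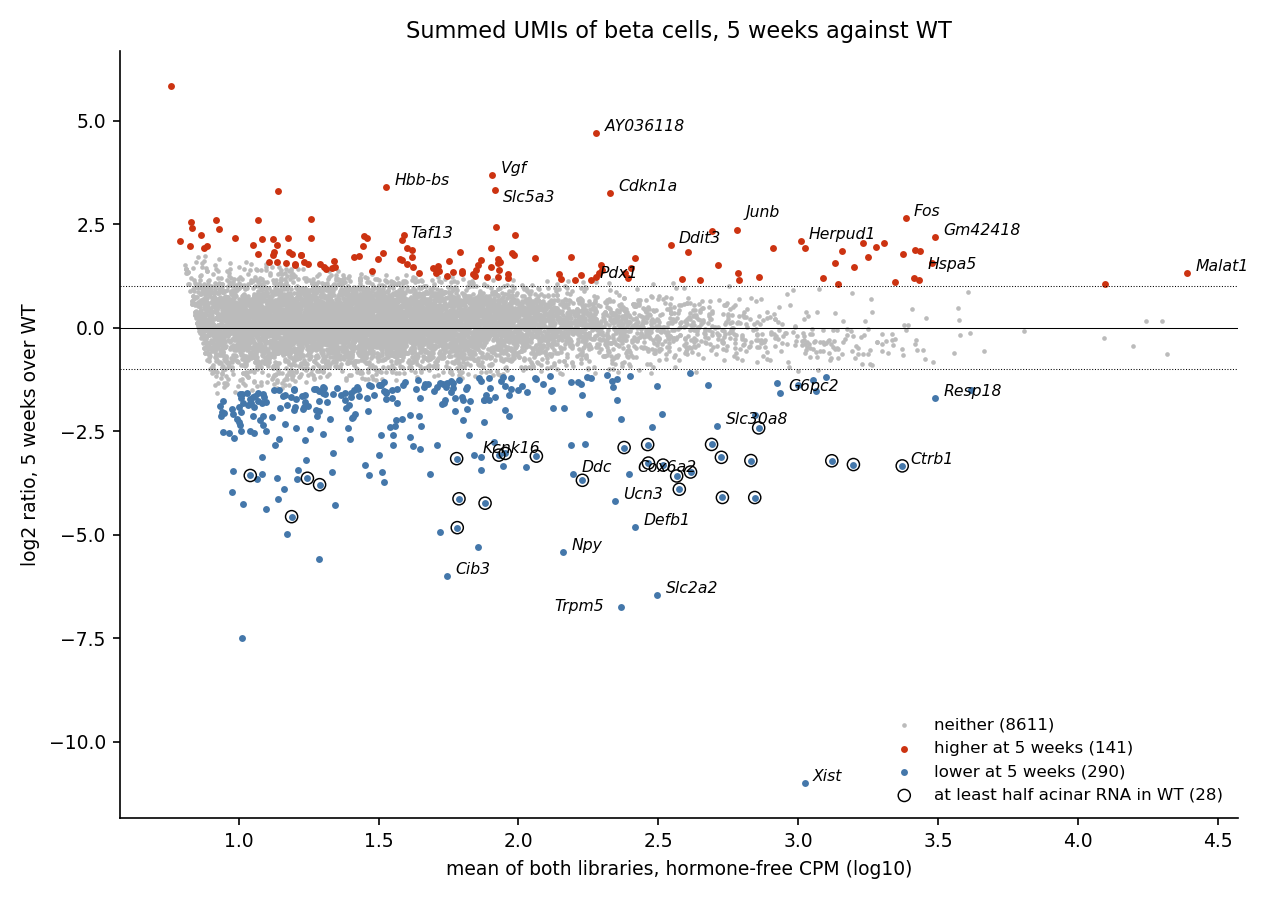
Log2 ratio of 5 weeks over WT in beta cells (vertical axis) against the mean level of the 2 libraries (horizontal axis, log10 of hormone-free CPM) for the 9042 genes tested, with dotted lines at 2-fold. 141 genes called higher are red, 290 called lower are blue, and circles mark 28 of the latter that owed 50% or more of their WT UMIs to acinar RNA. *Xist*, *Trpm5* and *Slc2a2* lie lowest among the labelled genes, and *AY036118*, *Vgf* and *Hbb-bs* highest.

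Of 14 TFIID subunit genes tested, *Taf13* alone was called higher and none lower, and it was at 14.3 CPM (11.2 to 17.9) in WT and 62.2 CPM (57.1 to 67.6) at 5 weeks, while *Taf12*, *Taf5* and *Taf15* had log2 ratios of 1.14, 1.16 and 1.11. The median of the 14 was 0.78, against 0.09 over all genes tested. In alpha cells of the same libraries the 7 of them with at least 100 UMIs had a median of 0.71, against 0.19 over all genes there. In delta cells the 1 with enough UMIs had a log2 ratio of -1.26. Among 26 genes of other general transcription factors and the Mediator complex, *Polr2a*, the largest subunit of RNA polymerase II, was called higher at 35.7 CPM in WT against 111 CPM at 5 weeks, and the list's median was 0.32.

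The genes of glucose uptake and of the ion channels held 2 of the deepest losses. *Slc2a2*, the glucose transporter of mouse beta cells (chr3:28697903-28728361), was at 619 CPM (598 to 641) in WT and at 7.07 CPM (5.42 to 9.07) at 5 weeks, a log2 ratio of -6.45 (-6.84 to -6.09). It was found in 16.5% of WT beta cells and 0.285% of 5-week beta cells at 300 hormone-free UMIs (30.6% and 1.11% without thinning), and in 0.504% of WT alpha cells at the same depth. The 5-week share thus lay below that of alpha cells in WT, which should lack the gene, but those cells are of the other library. Within the 5-week library and without thinning, *Slc2a2* was found in 1.11% of beta and 0.116% of alpha cells. Its promoter is shown as that of the most reduced transporter (chr3:28697653-28697952, plus strand). It too was free of the letters searched.
Slc2a2: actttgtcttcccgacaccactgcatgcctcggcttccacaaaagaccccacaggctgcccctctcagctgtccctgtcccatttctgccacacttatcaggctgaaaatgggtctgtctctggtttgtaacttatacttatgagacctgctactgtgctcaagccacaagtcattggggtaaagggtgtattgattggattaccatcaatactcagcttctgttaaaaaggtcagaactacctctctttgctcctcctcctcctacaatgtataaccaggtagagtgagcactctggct

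*G6pc2*, the islet glucose-6-phosphatase, was also called lower, at 1285 CPM in WT against 434 CPM at 5 weeks. These were 2 of 22 genes of glucose sensing and metabolism, and none was called higher. The list's median log2 ratio of -0.05 lay near that of all genes. Of 16 ion channel genes, 3 were called lower and none higher. *Trpm5*, a calcium-activated cation channel (chr7:143071529-143094642), was at 462 CPM (444 to 481) in WT and 4.34 CPM (3.07 to 5.95) at 5 weeks, from 2366 and 38 UMIs. *Kcnk16*, a background potassium channel of beta cells, was at 124 and 14.7 CPM. *Scn3a*, a sodium channel subunit, had 72 and 30 UMIs, and its call was lost at equal depth. The subunits of the ATP-sensitive potassium channel stood apart from these: *Abcc8* was at 377 CPM (361 to 395) in WT and 380.1 CPM (367 to 393) at 5 weeks, and *Kcnj11* had a log2 ratio of -0.18.

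Receptors through which hormones and nutrients act on beta cells were called lower in 5 of 15 cases and higher in none, with a median log2 ratio of -0.79. *Gipr*, the receptor of the incretin GIP, was at 89.8 CPM (81.8 to 98.4) in WT and 12.7 CPM (10.4 to 15.3) at 5 weeks. *Ffar1*, a receptor of long-chain fatty acids, was at 78.5 and 10.3 CPM, and *Gpr119*, a receptor of lipid amides, had 110 and 15 UMIs. *Prlr*, the prolactin receptor, was at 1136 and 262 CPM, and *Gcgr*, the glucagon receptor, had a log2 ratio of -1.79. The receptor of the other incretin, *Glp1r*, had a log2 ratio of 0.59 and was not called.

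The granule proteins were called in both directions. Among 19 genes of granule cargo and prohormone processing, 4 were called lower: *Nnat* (57 CPM in WT and 6.73 CPM at 5 weeks), *Slc30a8* (860.5 and 166 CPM), *Resp18* (4698 and 1451 CPM) and *Pcsk1n* (6102 and 2153 CPM). Slc30a8 carries the zinc that crystallises insulin, and Pcsk1n inhibits the prohormone convertase Pcsk1. *Vgf*, a granin-family precursor (chr5:137025301-137033351), was called higher with 11.5 CPM (8.77 to 14.9) in WT and 149.8 CPM (142 to 158) at 5 weeks, and so was *Scg3*, which sorts cargo to granules, with 738 and 1708 CPM. The convertases *Pcsk1* and *Pcsk2* had log2 ratios of 0.01 and -0.35, and *Chga* one of -0.56. Of 22 exocytosis genes, *Rab3b* and *Rph3al* were called lower (-1.58 and -1.44) and none higher, and the list's median was -0.44.

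Transcription factors of beta cells were for the most part within 2-fold. Of 20 tested, *Myt1*, *St18* and *Mlxipl* were called lower, with log2 ratios of -2.55 (-3.03 to -2.10), -1.81 (-2.05 to -1.57) and -1.51 (-1.68 to -1.34). The first 2 are related zinc-finger factors, and Mlxipl (ChREBP) responds to glucose. *Pdx1*, a master regulator of beta cells, was called higher with 112 CPM (103 to 122) in WT and 251 CPM (240.2 to 261) at 5 weeks, but the call was lost at equal depth and when ratios were centred on the median gene. *Mafa* was at 402 and 639.96 CPM, *Nkx6-1* at 379.6 and 514 CPM and *Neurod1* at 248 and 206 CPM, none of them called. *Mafa* marked the cells as beta cells in both libraries, since at 300 hormone-free UMIs it was found in 11.2% and 18.1% of them and in 0.883% and 0.93% of alpha cells. Of 10 transcription factors of alpha cells and progenitors 3 had enough UMIs, and none was called. Of 29 genes listed as normally silenced in beta cells 3 had enough UMIs, and none was called higher. *Ddc*, aromatic amino acid decarboxylase, was called lower at 289 CPM (274 to 304) in WT and 25 CPM (21.8 to 28.5) at 5 weeks. Although on that list, *Ddc* was not silent in WT beta cells: it was at 90.4 CPM in WT alpha cells. At equal depth it was found in 8.03% of WT beta and 2.61% of WT alpha cells. *Th*, which encodes the tyrosine hydroxylase upstream of it in dopamine synthesis, had 114 and 17 UMIs.

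The maturity marker *Ucn3* (chr13:3940688-3945349), whose peptide acts on delta cells, was at 419 CPM (402 to 438) in WT and 23.2 CPM (20.1 to 26.6) at 5 weeks. At equal depth it was found in 12.2% and 0.437% of beta cells, and in 0.631% of WT alpha cells. Within the 5-week library and without thinning, *Ucn3* was found in 3.62% of beta and 0.0772% of alpha cells. Several genes less known from beta cells were among the lowest. *Cib3*, of the family of calcium and integrin-binding proteins, was at 109 CPM (100.3 to 119) in WT and 1.71 CPM (0.958 to 2.82) at 5 weeks. *Npy*, neuropeptide Y, was at 282 CPM (268 to 297) and 6.62 CPM (5.02 to 8.55). *Defb1*, a beta-defensin, was at 504 CPM (485 to 524) and 17.8 CPM (15.1 to 20.8), whereas its log2 ratio in alpha cells was -0.54 (-0.91 to -0.17). *Fmo1*, a flavin mono-oxygenase, was at 139.8 and 3.54 CPM, and *Olfr1322*, an olfactory receptor gene, had 105 and 1 UMIs. All of these except *Olfr1322* were called at equal depth as well.

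**Figure D3:**
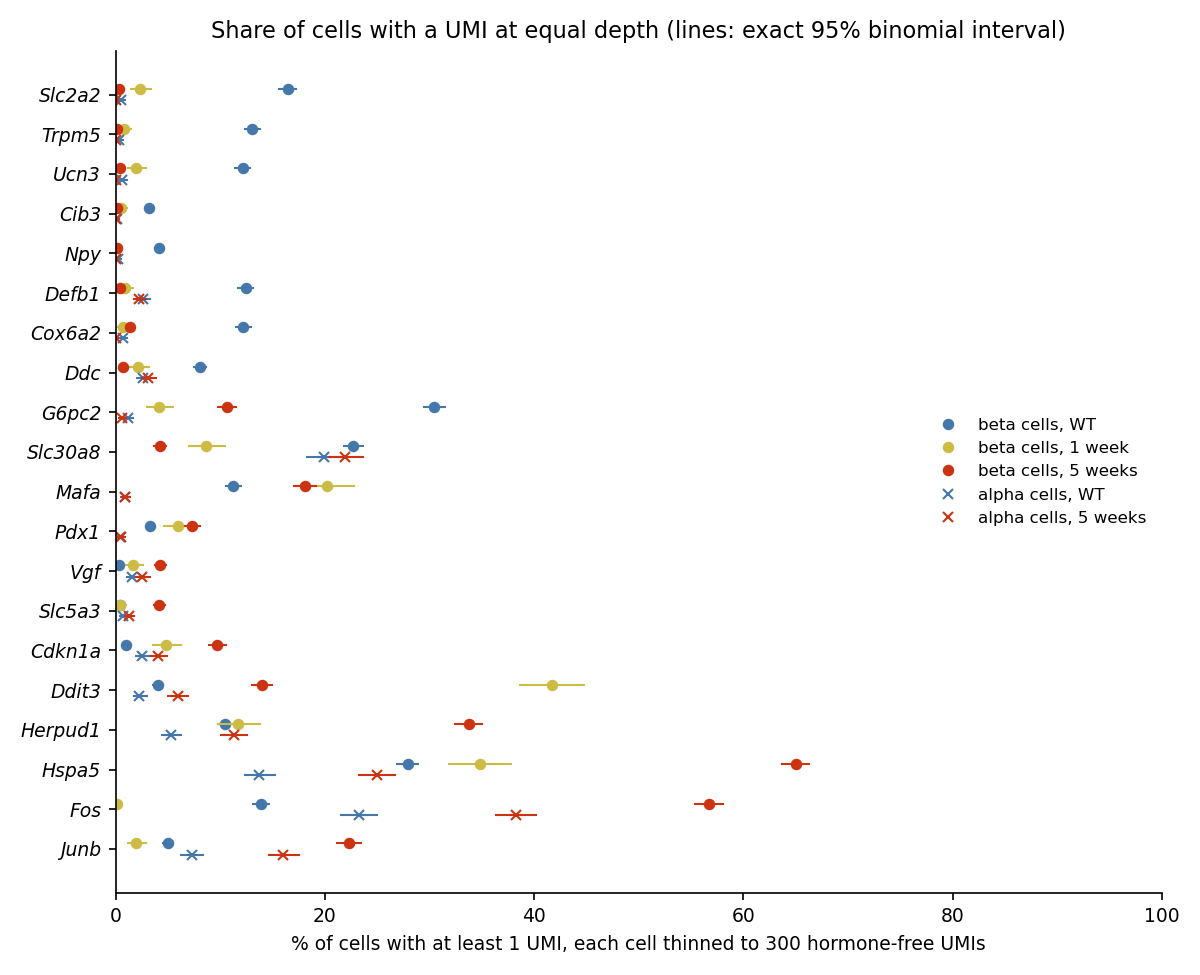
Share of cells with at least 1 UMI of a gene (horizontal axis, percent) after each cell was thinned to 300 hormone-free UMIs, in beta cells (circles) of WT (blue), 1 week (yellow) and 5 weeks (red) and in alpha cells (crosses) of WT and 5 weeks, with exact binomial intervals. *Slc2a2* was found in 16.5% of WT and 0.285% of 5-week beta cells, and *Fos* in 13.9% and 56.7%.

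ER chaperones and folding enzymes were called higher in 3 of 29 cases and lower in none, with a median log2 ratio of 0.19 and 21 members above 0. *Hspa5*, the chaperone BiP (chr2:34772090-34776529), was at 1167 CPM (1138 to 1197) in WT and 4258 CPM (4215 to 4301) at 5 weeks, and was found in 27.9% and 65% of beta cells at equal depth. *Herpud1*, an adaptor of ER-associated degradation (chr8:94386429-94395371), was at 387 CPM (370.1 to 404) and 1649 CPM (1622 to 1676). *Selenos*, of the same degradation machinery, was at 381 and 845 CPM, but its call was lost at equal depth and with median centring. *Calr*, *Pdia3* and *Hsp90b1* had log2 ratios of 0.92, 0.73 and 0.69, whereas *Xbp1* and *Dnajb9* had -0.23 and -0.72. The alpha cells of the same libraries gave log2 ratios of 1.13 for *Hspa5* and 1.16 for *Herpud1*. Both promoters are shown for the motif letters that they hold. In that of *Hspa5* (chr2:34771840-34772139, plus strand) the capitals mark the ER stress element, CCAAT and CCACG with any 9 bases (N) between them, bound by Atf6 with NF-Y. In that of *Herpud1* (chr8:94386179-94386478, plus strand) they mark TGATGCAA, a C/EBP-Atf composite motif bound by Atf4 and Chop, read on the reverse strand.
Hspa5: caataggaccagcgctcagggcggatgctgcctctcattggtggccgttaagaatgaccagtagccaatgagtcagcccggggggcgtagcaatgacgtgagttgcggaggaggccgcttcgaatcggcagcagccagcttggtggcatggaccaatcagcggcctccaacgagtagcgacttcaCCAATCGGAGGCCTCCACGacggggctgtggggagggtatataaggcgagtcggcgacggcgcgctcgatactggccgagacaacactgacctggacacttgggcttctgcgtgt
Herpud1: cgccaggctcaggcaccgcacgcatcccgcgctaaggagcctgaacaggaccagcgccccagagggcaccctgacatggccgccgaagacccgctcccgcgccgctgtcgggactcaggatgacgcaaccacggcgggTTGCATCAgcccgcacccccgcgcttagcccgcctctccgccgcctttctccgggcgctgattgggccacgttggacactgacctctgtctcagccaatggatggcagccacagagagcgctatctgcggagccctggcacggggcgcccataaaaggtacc

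The integrated stress response held 7 genes called higher and 1 lower among 26 tested, with a median log2 ratio of 0.66 and 23 members above 0. *Ddit3*, which encodes the pro-apoptotic factor Chop (chr10:127290793-127296291), was at 139.99 CPM (129.9 to 151) in WT and 558 CPM (543 to 574) at 5 weeks. The others called higher were *Ddit4* (1.93), an inhibitor of mTORC1, *Atf3* (1.71), a stress-induced transcription factor, *Ppp1r15a* (1.69), which restores translation, *Chac1* (1.61), which degrades glutathione, *Phgdh* (1.32), of serine synthesis, and *Eprs* (1.23), a tRNA synthetase. *Atf4*, the factor upstream of many of these, was at 267 and 403 CPM and was not called. *Nupr1*, a stress-induced nuclear protein, went the other way, from 528 CPM (508 to 548) in WT to 126 CPM (118 to 133) at 5 weeks. At 1 week, in a library that shares its WT control with this comparison, *Ddit3* stood at 2938 CPM and *Nupr1* at 2875 CPM, summed over 1138 beta cells whose UMIs ran from 489 at the 5th to 47537 at the 95th percentile.

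Immediate early genes were called higher in 13 of 19 cases and lower in none, the largest share of any list with more than 5 genes tested besides acinar markers, and all 19 lay above 0 with a median of 1.56. *Fos*, a subunit of the transcription factor AP-1 (chr12:85473890-85477274), was at 662 CPM (640.2 to 685) in WT and 4168 CPM (4125 to 4211) at 5 weeks. *Junb*, *Jund*, *Ier2*, *Zfp36*, *Egr2* and *Btg2* had log2 ratios of 2.38, 2.05, 2.34, 2.44, 2.42 and 1.94. Heat shock chaperones were called higher in 8 of 13 cases, with a median of 1.21. *Hspa8*, the constitutive Hsp70, was at 1513 and 4484 CPM, *Hsp90aa1* at 1066 and 3647 CPM and *Dnaja1* at 786 and 3259.7 CPM. Both lists were also above the median gene in the other cell types of these libraries: the median of the immediate early genes was 1.27 in alpha and 1.21 in delta cells, and that of the heat shock genes 1.33 and 0.90. At 1 week, against the same WT library, both medians in beta cells had the opposite sign, -1.73 and -1.42. What these shared levels contribute to the difference in beta cells was not tested. The *Fos* promoter (chr12:85473640-85473939, plus strand) is shown because it holds TATAAA, marked by capitals, in the place of a TATA box, where the TATA-binding protein of TFIID binds.
Fos: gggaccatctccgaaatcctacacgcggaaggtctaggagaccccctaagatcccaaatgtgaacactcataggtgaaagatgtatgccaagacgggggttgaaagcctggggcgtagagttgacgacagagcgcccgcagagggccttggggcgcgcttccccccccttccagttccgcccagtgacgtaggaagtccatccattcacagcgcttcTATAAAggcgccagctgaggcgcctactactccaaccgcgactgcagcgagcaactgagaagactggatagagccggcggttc

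Of 13 targets of p53, 3 were called higher and none lower. *Cdkn1a*, the cell cycle inhibitor p21 (chr17:29090979-29100722), was at 40.03 CPM (34.7 to 45.9) in WT and 384 CPM (372 to 398) at 5 weeks, found in 1.01% and 9.7% of beta cells at equal depth. *Phlda3* was at 3.51 and 15.9 CPM, and the third, *Btg2*, is counted among the immediate early genes too. *Mdm2*, *Ccng1* and *Bax* had log2 ratios of 0.13, 0.25 and -0.46. None of 5 cell cycle genes with enough UMIs was called. *Slc5a3*, which imports myo-inositol, was at 14.8 CPM (11.7 to 18.6) in WT and 150.03 CPM (142 to 158) at 5 weeks. *Actg1*, cytoplasmic gamma-actin, was at 1116 and 4112 CPM. The nuclear RNA *Malat1* was at 14068 CPM (13965 to 14171) and 35040 CPM (34916 to 35164), and ubiquitin (*Ubb*) at 8098 and 16794 CPM, a call lost with median centring. Of 18 histone genes with enough UMIs, grouped after their values were seen, 9 were called higher and 1 lower, among them *Hist1h4h* (1.81), *Hist2h4* (2.62) and *Hist1h4c* (3.31), whose near-identical copies can share reads. *AY036118* and *Gm42418*, which overlap ribosomal RNA, had log2 ratios of 4.70 and 2.19 in beta, 4.72 and 2.02 in alpha and 4.32 and 2.07 in delta cells.

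**Figure D4:**
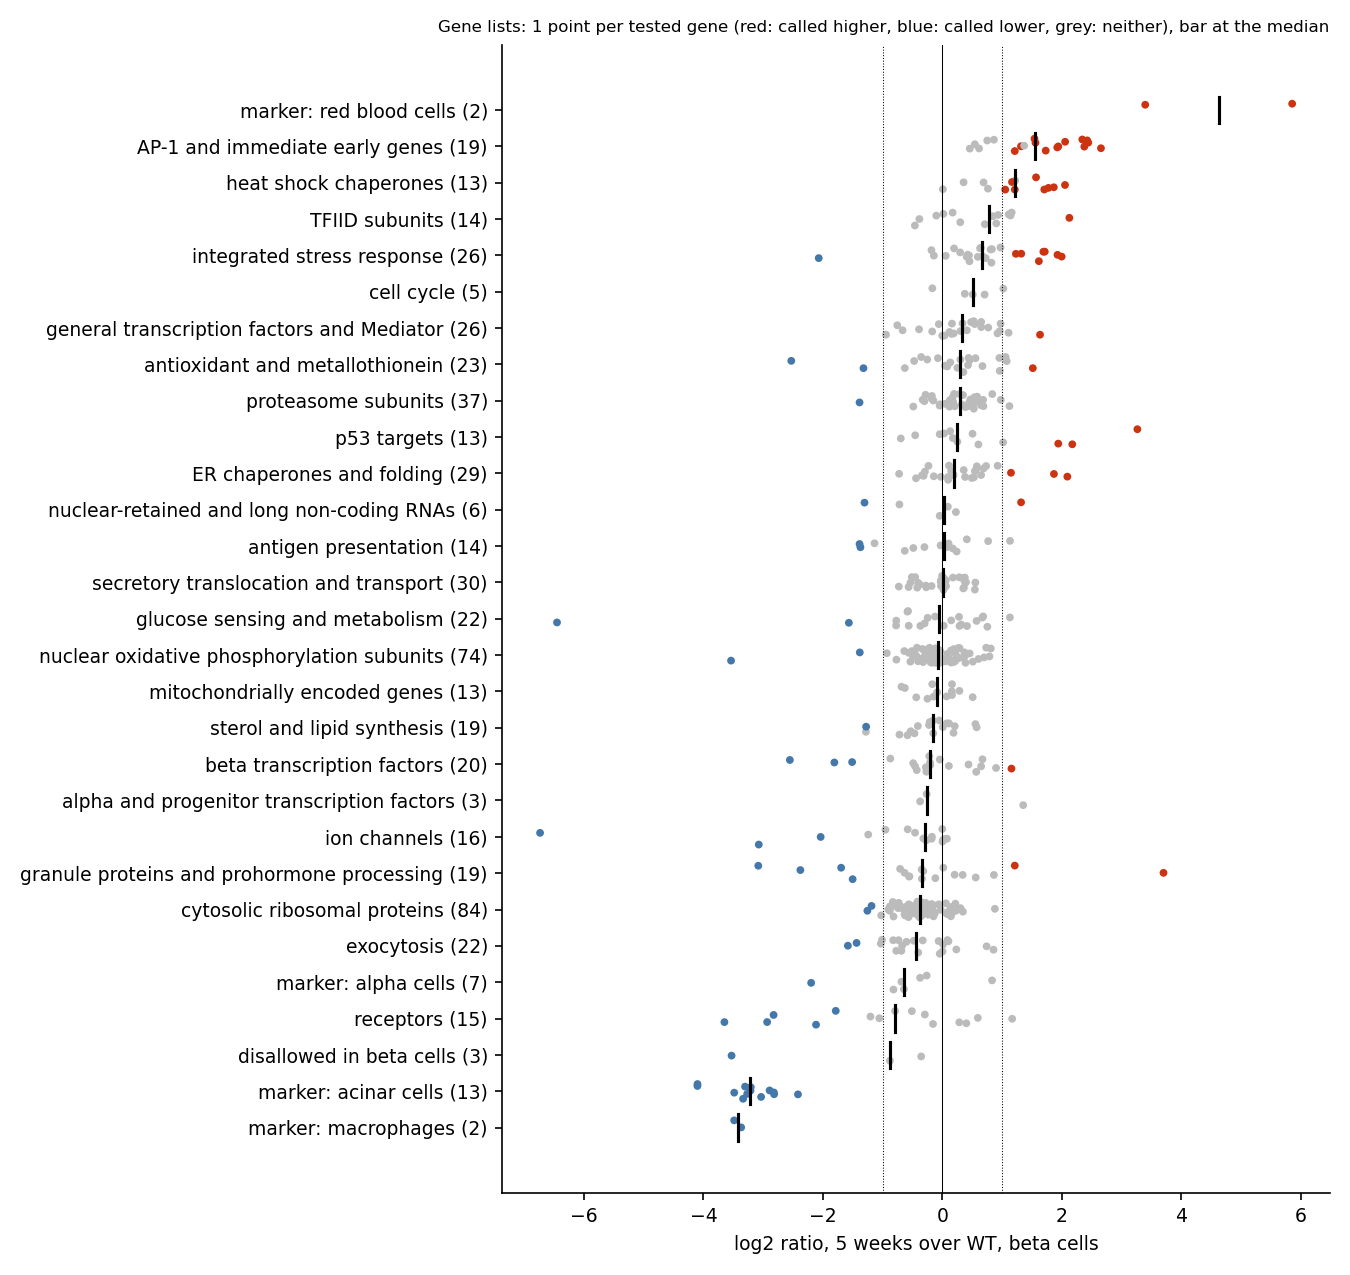
Log2 ratio of 5 weeks over WT in beta cells (horizontal axis) for each tested gene of the lists (rows, number tested in brackets), with a bar at each list's median and dotted lines at 2-fold. All 19 immediate early genes lie above 0, and all 13 acinar markers lie below the lower line, while most members of the metabolic and secretory lists lie between the lines.

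Genes of protein synthesis and energy metabolism were nearly all within 2-fold. Of 84 cytosolic ribosomal protein genes none was called higher and 2 lower, among them *Rpl39* (-1.19), but no more than 12 lay above 0 and the median was -0.38. The corresponding median in alpha cells was 0.04. None of 13 mitochondrially encoded genes was called. Of 74 nuclear genes of oxidative phosphorylation 2 were called lower and none higher. Among them *Cox6a2*, a subunit of cytochrome oxidase known from heart and skeletal muscle, was at 459 CPM (440.3 to 478) in WT and 39.5 CPM (35.4 to 43.9) at 5 weeks. Of 37 proteasome genes *Psmb8* alone was called (-1.39), and with *Tapbp* (-1.37) it made up the 2 of 14 antigen presentation genes called lower. Among 23 antioxidant and metallothionein genes *Txnip*, a glucose-induced inhibitor of thioredoxin, was called higher (268 and 766 CPM), and *Nqo1* (-2.53) and *Gpx3* (-1.32) lower. The calls of *Psmb8*, *Tapbp* and *Nqo1* were lost at equal depth. Of 19 genes of sterol and lipid synthesis *Scd2* was called lower (-1.28), a call also lost at equal depth, and of 30 genes of secretory translocation and transport none was called. Among 6 long non-coding RNAs, *Snhg11* (-1.30) was called lower and lost its call in 8 of 11 alternatives, and *Malat1* was the 1 called higher.

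Markers of other cell types differed between the libraries. All 13 acinar markers tested were called lower, and their summed level in beta cells was 17505 CPM in WT against 1856 CPM at 5 weeks. It was 21417 and 3602 CPM in alpha cells and 25274 and 4239 CPM in delta cells. The WT library held 87 barcodes with at least 10% of all their UMIs, hormones included, from these markers, and the 5-week library held none. Such barcodes also had to lie under the *Ins2* limit that is given below for alpha cells. *Ctrb1*, encoding chymotrypsinogen, was at 4276 and 423 CPM in beta cells. Scaled to these markers, the RNA of the 87 barcodes accounted for 50% or more of the WT UMIs of 28 of the 290 genes called lower and of none called higher. Leaving these genes out left 262 lower, and beta cells with under 1% of acinar marker UMIs gave 118 higher and 239 lower. *Reg2* and *Klk1*, also secreted by the exocrine pancreas, had log2 ratios of -4.94 and -4.83 in beta and -4.18 and -3.94 in alpha cells. Of 9 macrophage markers 2 were tested and both called lower, *C1qa* (990 and 164 UMIs) and *Fcer1g* (203 and 31 UMIs). The partners of C1qa were near 0, *C1qb* with 7 and 9 UMIs and *C1qc* with 1 and 4, as was *Tyrobp* with 4 and 8. The summed level of the 9 markers was 236 and 26.5 CPM in beta and 80.5 and 87.2 CPM in alpha cells. The B cell gene *Cd79a* had 276 and 40 UMIs, and its partner *Cd79b* 1 and 1. Haemoglobin genes were called higher, *Hbb-bs* with 30 and 540 UMIs and *Hbb-bt* with 1 and 99, but *Hbb-bs* was found in 0.361% of 5-week cells at equal depth. Of 7 alpha cell markers *Tmem27* alone was called, lower (-2.20). No marker of delta, PP or ductal cells with enough UMIs was called, and none of 9 mesenchymal markers had enough. Of 9 endothelial markers the 2 with enough UMIs, *Egfl7* and *Esam*, were not called (0.77 and 0.71). The summed level of the 9 was nevertheless higher at 5 weeks, with 15.6 and 55.5 CPM in beta, 19.9 and 55.4 CPM in alpha and 43.5 and 162 CPM in delta cells. *Flt1*, a receptor for VEGF, just below the minimum, had 3 and 87 UMIs in beta cells. The part of these marker differences in the other differences was not tested beyond the values given here.

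To see which differences were shared by cells of the same libraries that do not express insulin, the ratios were set beside those of 4997 alpha cells (*Gcg* at least 15% and *Ins2* below 15%) and 1002 delta cells (*Sst* at least 5%). In alpha cells 42 of 4752 genes were called higher (0.884%) and 34 lower (0.715%), and in delta cells 15 of 1154 higher (1.3%) and 19 lower (1.65%). The 86 genes called higher in beta cells that had at least 100 UMIs in alpha cells had median log2 ratios of 1.51 in beta and 0.99 in alpha cells. The 145 such genes called lower had medians of -1.75 in beta and -0.36 in alpha cells. These comparisons share both libraries, and the members were chosen by their beta ratio. The paper also proposes that part of the alpha cells at 5 weeks came from beta cells by trans-differentiation. The alpha cells of that library may therefore include cells without Taf4. The share over all genes measured in both cell types is not given here, so the next counts have no background beside them. The interval of the difference between the 2 ratios was here a normal approximation on the log scale from the 4 UMI counts. It lay beyond 2-fold for 7 of the 86 and for 66 of the 145. The 7 were *Vgf*, *Cdkn1a*, *Slc5a3*, *Fos*, *Ier2*, *Ddit4* and *Dusp1*, with a beta-minus-alpha difference of 3.11 (2.56 to 3.66) for *Vgf* and 2.38 (2.01 to 2.75) for *Cdkn1a*. On the lower side *Slc30a8*, which alpha cells also express, was at 860.5 and 166 CPM in beta cells and had a log2 ratio of 0.10 (-0.01 to 0.21) in alpha cells. *Kcnk16* and *Tmem27* had ratios of -0.23 and 0.01 in alpha against -3.07 and -2.20 in beta cells. *Slc2a2*, *Ucn3* and *Npy* had too few UMIs in alpha cells to enter there, 21 in WT and 3 at 5 weeks, 26 and 2, and 9 and 1. Their alpha ratios of -3.92 (-6.31 to -2.18), -4.82 (-7.94 to -2.82) and -4.29 (-9.74 to -1.44) have wide intervals, and in WT they were found in 0.504%, 0.631% and 0.21% of alpha cells at equal depth.

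**Figure D5:**
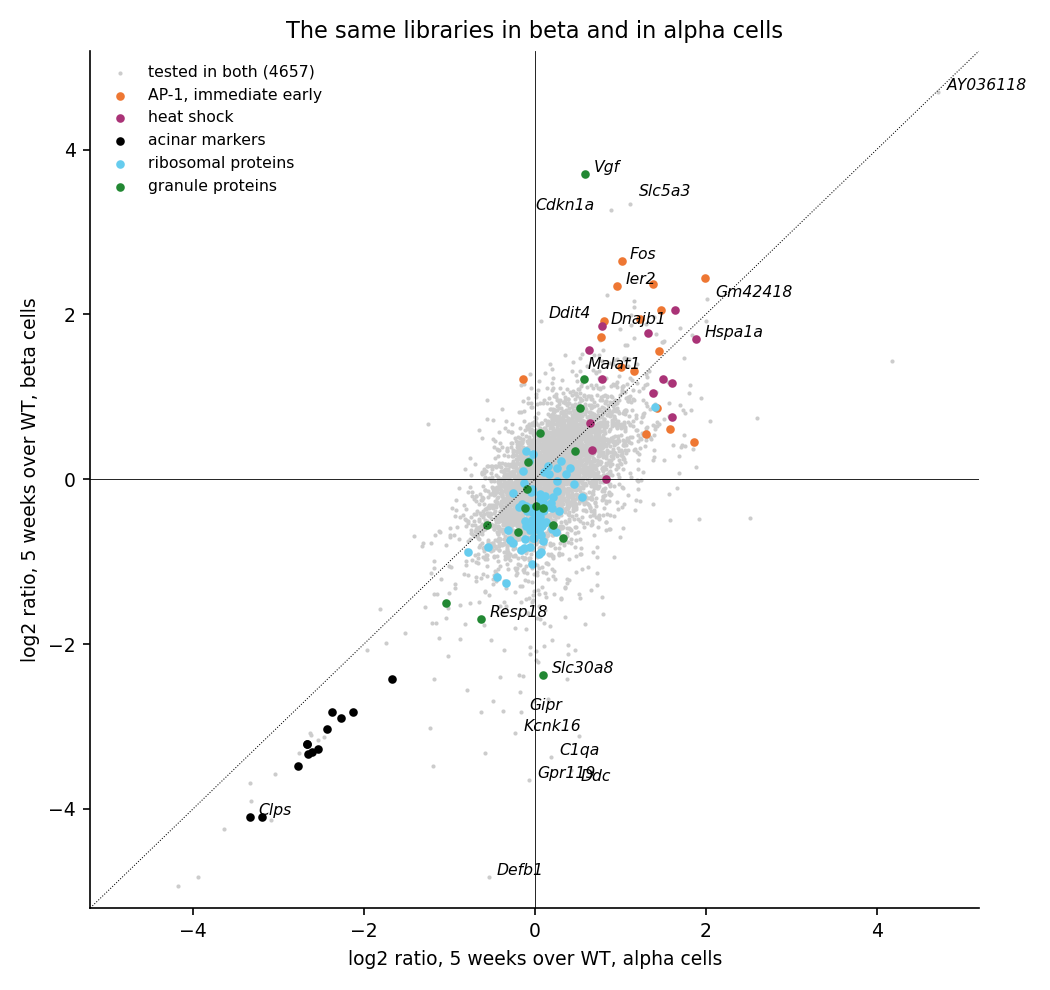
Log2 ratio of 5 weeks over WT in beta cells (vertical axis) against that in alpha cells of the same libraries (horizontal axis), 1 point per gene tested in both, with 5 lists in colour and a dotted line of equal ratios. Acinar markers lie near that line at the lower left, while *Defb1*, *Ddc*, *Gpr119* and *Slc30a8* lie low in beta cells with alpha ratios between -0.54 and 0.42, and *Vgf* and *Cdkn1a* high above the line.

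Promoter letters were counted in the RefSeq windows of the 7168 tested genes that had one (GRCm38.p6, the build of the counts). TATAAA on the sense strand with its first base 40 to 20 bases before the start was found for 8 of 110 genes called higher (7.27%), 17 of 206 called lower (8.25%) and 64 of 6852 called neither way (0.934%). A gene was counted when any of its windows held the letters. By the same count the positioned TATAAA was found for 2.41% of all 27025 genes with a window, and in 1.99% of all 32851 windows. Without the genes that owed 50% or more of their WT UMIs to acinar RNA, 10 of 185 genes called lower held it (5.41%). The 8 higher genes included *Fos*, *Taf13* and *Polr2a*, whose levels are given above. The haemoglobin gene *Hbb-bt*, whose call was lost at equal depth, was also among the 8. Anywhere in the window and on either strand, TATAAA stood in 15.5% of higher, 16.5% of lower and 8.05% of all tested genes. Over all 27025 genes with a window this share was 15.7%, near that of the genes called. TGATGCAA was found for 4 higher genes (3.64%), *Herpud1*, *Atf3*, *Chac1* and *Arid5b*, and for 3 lower genes (1.46%), *Nupr1*, *Prss2* and *Rhobtb1*. It was found for 0.753% of tested genes, against 1.03% of all genes with a window. The ER stress element stood in 14 tested genes (0.195%) and in 0.137% of all genes with a window. 10 of the 14 had log2 ratios above 0, with a median of 0.45. *Hspa5* was the only 1 of them called, and *Calr*, *Hsp90b1*, *Syvn1*, *Dnajc3* and *Pdia6* were among the rest. Both strands were searched for the last 2 motifs, and a match of letters does not show that a factor was bound.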

How the data were processed

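Live cells of dissociated islets were captured with 10X Genomics Chromium. As deposited, each value is a whole-number count of a gene's UMIs in a barcode, not normalized. The authors aligned reads to mm10 and counted UMIs with Cell Ranger 3.1, and the submitters' processing notes also name bcl2fastq 2.17.1.14 and Seurat 3.1.4. In the WT library alone, the authors removed mixed-hormone cells and doublets and drew it down to 12000 cells. The stated filter was 200 to 1500 genes and under 15% mitochondrial reads, and 994 barcodes of the deposited 5-week table exceed 1500 genes. No doublet caller was run here.

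UMIs were summed over the beta cells of a library, 7 hormones were left out of the totals, and ratios were given exact conditional Clopper-Pearson intervals, and differences between beta and alpha ratios normal-approximation intervals. With 1 library a side there is no test. Genes with at least 100 UMIs entered, and a call needed the interval to lie wholly past 2-fold. Python 3.11.15 with numpy 2.4.6, scipy 1.17.1 and pandas 2.3.3 was used. Tested on simulated counts for this comparison, 82% of 3-fold and 100% of 6-fold differences were called. The simulated counts held counting error only, without variation between cells, animals or preparations, so these shares do not measure the calls in the real libraries. The members and gene lists were chosen with earlier results of these data known. Named genes were the 15 with the bound farthest from 0 in each direction, the 8 with the largest gain or loss, and, in each list, up to 3 called members a direction and the 2 most abundant. Beyond these, 24 genes were named after their values were seen, along with members named for contrast, and values of some genes that the rule names are not reported here. Alternatives covered depth, scaling, filters, limits and the weight of cells.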

Additional observations from a re-analysis of the deposited data

Results flagged for a closer look

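In 4 of the named genes called lower in beta cells, the interval in alpha cells of the same libraries lay above 0. The log2 ratio of *Ddc* was -3.53 in beta and 0.42 in alpha cells. That of *Scd2* was -1.28 and 0.72, that of *Rph3al* -1.44 and 0.53, and that of *Psmb8* -1.39 and 0.52. The difference was not tested, as each side was 1 library. Only genes called in beta cells with at least 100 UMIs in the other cell type were searched. These were 86 higher and 145 lower for alpha cells, and 47 and 53 for delta cells. Among them 15 stood so against alpha cells and 0 against delta cells. The median gene in alpha cells lay at 0.19, and measured from it the alpha intervals of these 4 genes include 0.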

How the results depend on the processing

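No paired analysis was possible because each group held 1 library and no test was made. Against 141 genes higher and 290 lower, thinning to 300 hormone-free UMIs gave 82 and 152, thinning to 1000 UMIs of all genes 89 and 144, and cells of 1000 to 2500 UMIs 80 and 155, with fewer genes tested in each case. A minimum of 300 UMIs gave 177 lower and no minimum 464 lower. Intervals past 1.5-fold gave 557 higher and 599 lower, and past 4-fold 17 and 94. Other scalings, cell weights, limits and filters gave 108 to 189 higher and 239 to 384 lower. No direction reversed among the counts and the named genes that were called, but the size of the ratios depended on depth. In cells of 1000 to 2500 UMIs, the ratios of 37 named genes stayed within their interval from the whole counts. Those of 123 left it, and the largest shift was 2.47 on the log2 scale. In 11 alternatives of depth, scaling and cells, 56 higher and 112 lower genes were called each time, and 430 of the 431 called genes kept their sign. Genes higher made up 32.7% of calls, and 25.6 to 37.4% under other scalings. The alternatives on acinar RNA were chosen after seeing the data. The single library a side, the *Xist* level of the WT library and doublet removal from that library alone limit every comparison, and genes with few UMIs could not be called.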
